A study of Mus musculus with 6 samples.

Results

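The C/EBP genes encode basic leucine zipper transcription factors that bind DNA as dimers with each other. RUNX1 binding around 4 of them, Cebpa, Cebpb, Cebpd and Cebpg, was measured by chromatin immunoprecipitation and sequencing (ChIP-seq) in mouse granulosa cells, the somatic cells of the ovarian follicle that support the oocyte. A peak, meaning an interval in which the authors' caller found more ChIP reads than the local background, was assigned to a gene when its summit lay inside the RefSeq gene or within 50 kb of either end. The 4 genes were taken from 21896 protein-coding genes in the RefSeq table, and 53 of the 51515 peaks in all lists met the rule.

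The series holds 6 samples, of which the 4 RUNX1 ChIP libraries were analysed here by their peak lists; the antibody is not named beyond its target. Per the labels, CBA x C57BL/6 F1 mice were injected at 21 days of age with eCG (equine chorionic gonadotropin, 5 IU), which drives follicles to grow. An injection of 5 IU of human chorionic gonadotropin (hCG), which acts on the receptor of luteinising hormone and triggers ovulation, came 46 h after it. There were 2 libraries of pre-ovulatory cells (0 h) and 2 of peri-ovulatory cells collected 6 h after hCG, with 1 pooled input per time point, all read as 75 nt single ends. Every sample carries the same treatment text, in which cells are taken at 6 h. Membership of the 0 h group is therefore known from titles and time-point labels alone. Nothing in the labels says that the replicates came from separate mice, so the p-values below measure only the spread between these libraries, which may be technical. The files used here hold no RNA measurement, so the cell type was not checked against marker genes here.

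C/EBPβ, encoded by Cebpb, is known to rise in granulosa cells after the surge of luteinising hormone and to be needed in mice for ovulation and the change of granulosa cells into luteal cells. C/EBPα drives differentiation of several tissues and C/EBPδ is an early response factor in inflammation. C/EBPγ has no activation domain of its own and works mainly as a dimer partner. RUNX1 is a DNA-binding factor of the Runt family that is itself induced in granulosa cells before ovulation.

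All 4 C/EBP genes had a RUNX1 peak in both libraries at 6 h, and only Cebpb had one in both libraries at 0 h. Cebpb held 1 and 2 peaks in the 0 h libraries (replicates 1 and 2), against 12 and 16 in those at 6 h. Cebpa held none in either 0 h library, and 5 and 9 in the 6 h libraries. Cebpg likewise had none at 0 h, and 2 and 5 at 6 h. Cebpd had 0 and 1 at 0 h, and 1 and 2 at 6 h, so its time points touched at 1 peak. Of all protein-coding genes, 69.1% had a peak in both 6 h libraries and 8.99% in both 0 h libraries. More peaks in each 6 h than in each 0 h library were found for 3 of the 4 genes (not for Cebpd) and for 64.6% of protein-coding genes, and the opposite for none of the 4 and for 0.00457%. Peaks in both 6 h libraries and in neither 0 h library were found for Cebpa and Cebpg, and for 40.6% of protein-coding genes.

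**Figure D1:**
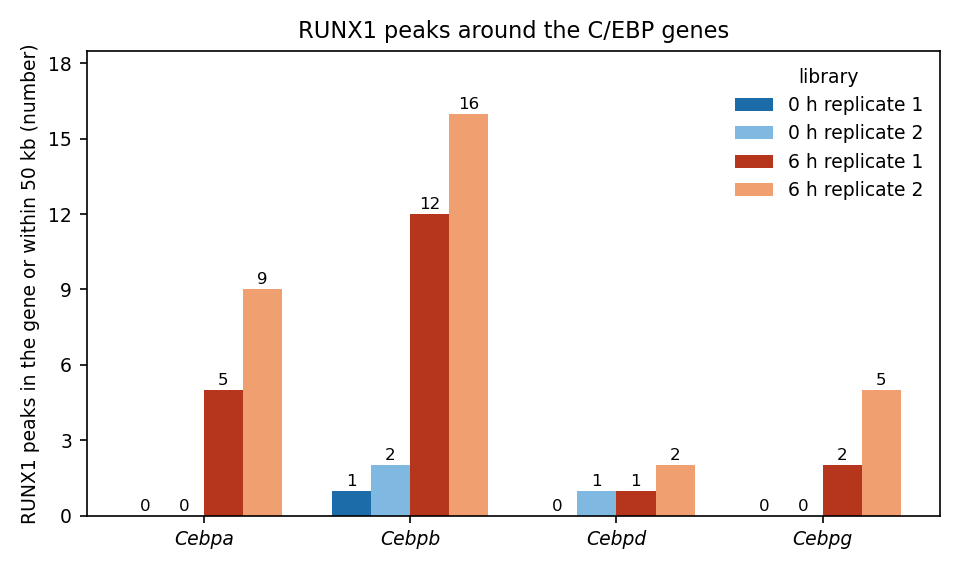
Number of RUNX1 peaks (y axis) with a summit in each C/EBP gene or within 50 kb, with 1 bar per library. Cebpb had the most peaks in every library, 12 and 16 at 6 h against 1 and 2 at 0 h, while Cebpd had at most 2.

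Counted once where windows overlap, the C/EBP loci held 1 and 3 peaks at 0 h (mean 2 ± 1.41, SD, n = 2) and 19 and 30 peaks at 6 h (mean 24.5 ± 7.78, SD, n = 2). The groups did not overlap. On the scale of log2(1 + peaks) the mean of the 6 h pair was higher by 3.14. A two-sided exact permutation test gave p = 0.333 (n = 2 against 2), and 0.333 is the smallest p that 2 libraries against 2 can give. The 4 lists differ in length to nearly the same degree, with 948 and 3135 peaks at 0 h and 18761 and 28671 at 6 h. The C/EBP loci took 0.105% (95% CI 0.00267 to 0.586, exact Clopper-Pearson) and 0.0957% (0.0197 to 0.279) of the 0 h lists. At 6 h they took 0.101% (0.0610 to 0.158) and 0.105% (0.0706 to 0.149). The mean log2 share differed by 0.04 between time points (exact permutation test, two-sided, p = 1). The direction of this difference depended on the window: it was -0.46 with 10 kb and -0.58 with 100 kb, where the mean share was 0.238% at 0 h and 0.151% at 6 h. With a −log10 q of at least 20 the mean share was 0.0466% at 0 h, where replicate 1 held no such peak, and 0.0960% at 6 h (exact permutation p = 0.667). The intervals cover counting error only and treat peaks as independent. In 6 h replicate 2, 16 of the 30 peaks lay in the Cebpb window, so the intervals may be too narrow. When every library was reduced to its 948 peaks of lowest p, 1 peak remained at these loci in each 0 h library and none in either 6 h library.

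Compared with other genes, Cebpb stood high in the number of peaks at 6 h. At least 12 peaks in 6 h replicate 1 together with at least 16 in replicate 2 were found around 0.365% of protein-coding genes. For Cebpa, the share with at least as many peaks in both libraries was 6.67%. Cebpg and Cebpd lay in the bulk of genes, with 28.2% and 60.4%. The median protein-coding gene had 2 peaks in 6 h replicate 1 and 3 in replicate 2.

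**Figure D2:**
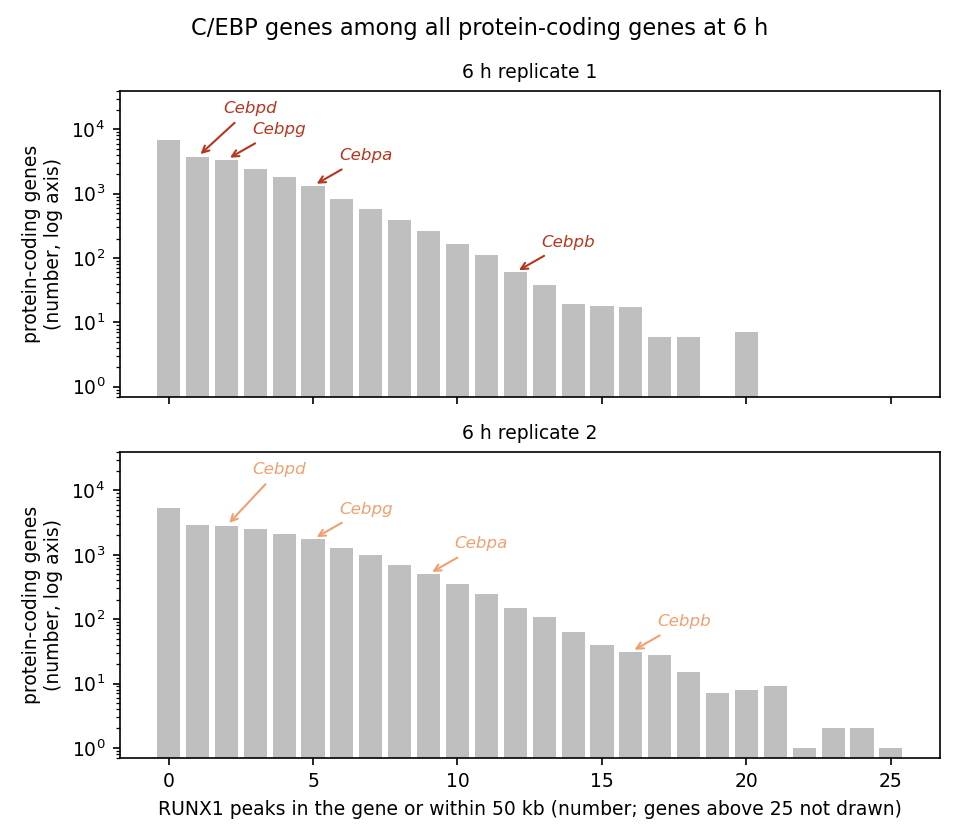
Number of protein-coding genes (y axis, log scale) by the number of RUNX1 peaks in the gene or within 50 kb (x axis) in the 2 libraries at 6 h, with genes above 25 peaks not drawn. Arrows mark the C/EBP genes, of which Cebpb lies in the right tail with 12 and 16 peaks and Cebpd near the left end with 1 and 2.

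Peaks of different libraries that shared at least 1 bp were joined into regions. The C/EBP loci held 30 regions, of which 17 were called in both 6 h libraries, 12 in 6 h replicate 2 but not replicate 1, and 1 in replicate 1 but not replicate 2. All 3 regions with a 0 h peak were also called in both 6 h libraries, as were 93.5% of the 3032 such regions of the series. The agreement of the 6 h libraries was like that of the whole lists. Of the 18 regions of 6 h replicate 1, 17 were found in replicate 2, against 96.2% over the series, and of the 29 regions of replicate 2, 17 were found in replicate 1, against 60.5%. Taking the strongest summit of each library in a region, the 6 h summits lay a median of 21 bp apart, and at most 212 bp. Of the 17 regions called in both 6 h libraries, 14 were called in no 0 h library, and over the series 83.5% were not. This number was 27 without 6 h replicate 1.

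The read pileup at each summit was recovered from the fold and the p-value and divided by the commonest background of its own library, which gives a relative pileup. Fold and p are known only at called peaks, so this background comes from the list. Whether it depends on the length of the list was not tested. That background was 2.77 and 2.65 reads in the 0 h libraries, and 2.76 and 2.13 in the 6 h libraries. At the commonest background, 18 and 17 reads were needed to pass the limit of the 0 h lists (a −log10 p of 9). The pileup at 0 h of a region not called there is not known.

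Cebpb lies on chromosome 2 at 167688915 to 167690432 on the plus strand (GRCm38). Its strongest region was the only one at the 4 genes that was called in all 4 libraries, and a region of this kind lay within 50 kb of 8.49% of protein-coding genes. It spanned chr2:167687105-167689428 and reached from upstream of the gene into it. The summit was 1194 bp and 1130 bp upstream of the start in the first and second 0 h replicate, and at 6 h it lay 1134 bp and 1142 bp upstream. The 4 summits fell within 64 bp of each other.

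At this site the summit pileup was 29 reads in 0 h replicate 1 and 53 in replicate 2, against 128 and 155 in the 6 h pair. Divided by the background of each library, the relative pileup was 10.5 and 19.98 in the 0 h pair, and 46.4 and 72.7 in the 6 h pair. Both 6 h libraries were above both 0 h libraries. On the log2 scale the mean was 3.85 ± 0.66 (SD, n = 2) for the 0 h pair and 5.86 ± 0.46 (SD, n = 2) for the 6 h pair, a difference of 2.00, or 4.01-fold between geometric means (exact permutation test, two-sided, p = 0.333, the smallest possible). Most regions called in all 4 libraries differed in the same direction. Among the 795 of them in the series the median difference was 1.85 on the log2 scale (quartiles 1.24 and 2.30), 57.7% lay below the Cebpb region, and 90.9% had both 6 h libraries above both 0 h libraries.

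The deposited fold enrichment at the Cebpb site was 5.48 and 10.5 in the 0 h lists, against 17.4 and 29.2 in the 6 h lists. Because fold cannot be compared directly between lists, every value was also ranked within its own list, as the percentage of peaks with the same or a lower fold. The site stood at percentiles 15.2 and 85.7 at 0 h, and at 89.3 and 93.5 at 6 h. The 0 h replicates were thus far apart in rank. The mean rank was 40.96 percentile points higher at 6 h (two-sided exact permutation p = 0.333, the smallest possible), and 76.2 without 0 h replicate 2. Over the 795 regions called in all 4 libraries the median difference was 20.1 percentile points, and 75.3% lay below the Cebpb region. Without 0 h replicate 1 it was 5.68 for this site, and 26.1% of the 2778 regions of the series called in the other 3 libraries had a smaller difference. The difference in log2 relative pileup at the site was 1.54 without 0 h replicate 1. Ranks from lists of such different lengths do not by themselves show a change. The peak was also among the widest of the 6 h lists, with 1911 and 2324 bp at width percentiles 99.2 and 99.7, against 203 and 298 bp at 0 h.

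The 6 h peak covered the Cebpb promoter, whereas the 0 h peaks ended upstream of it. The promoter is printed here because the 6 h interval runs across it, from 250 bases before to 50 after the RefSeq start (GRCm38.p6, chr2:167688665-167688964, plus strand, 5′ to 3′). Capitals mark matches to TGACGC on either strand, a sequence that shares its first letters with the cAMP response element TGACGTCA.
Cebpb promoter: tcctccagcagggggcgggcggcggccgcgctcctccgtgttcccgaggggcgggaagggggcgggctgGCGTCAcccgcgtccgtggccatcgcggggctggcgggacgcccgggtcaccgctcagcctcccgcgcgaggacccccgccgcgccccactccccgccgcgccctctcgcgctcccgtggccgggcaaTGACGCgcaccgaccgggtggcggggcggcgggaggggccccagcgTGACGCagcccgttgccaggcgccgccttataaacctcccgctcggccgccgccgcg
This motif was chosen after the promoter was seen, as were TTGCGC and GTGGT below. TGACGC occurred 3 times in it, beginning 181, 53 and 7 bases before the start, and 7.40% of the 32851 promoters of the table held at least 1 match. The full element TGACGTCA was not found in this window, nor were the RUNX core sequences TGTGGT and TGCGGT, the C/EBP motifs TTGCGCAA and TTNNGCAA, or CCAAT. Each was searched on both strands, and TGACGTCA was found in 1.79% of all promoters, TGTGGT in 16.8% and TGCGGT in 6.45%. The sequence under the summit, which lies outside this window, was not used here.

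Around Cebpb, 17 regions were called in any library, 11 of them in both 6 h libraries. Inside the gene, a region at chr2:167689623-167689923 had its summit 864 and 860 bp after the start, where the deposited fold was 14.6 in 6 h replicate 1 and 11.004 in replicate 2. A second region inside the gene, 1245 bp after the start, was called in 6 h replicate 2 alone. Downstream, A530013C23Rik, a gene for a long non-coding RNA, was the gene with the nearest end to 6 of the regions called in both 6 h libraries. The strongest of these 6 lay 9059 and 9080 bp after the Cebpb start at chr2:167697814-167698330, where the fold reached 10.1 (percentile 63.6) and 18.8 (percentile 82.6). The other 5 stood between percentiles 5.91 and 56.5. One more replicated region lay nearest to Gm38464, a long non-coding RNA gene, at percentiles 21.2 and 52.3.

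Upstream, 2 regions called in both 6 h libraries lay at an end of Tmem189, a neighbouring protein-coding gene, and not at Cebpb. The one at chr2:167661633-167662074 was also called in 0 h replicate 2. Its relative pileup was 13.9 in that library, and 18.1 and 36.6 in the 6 h libraries, so the 6 h replicates differed more from each other than the lower of them did from 0 h. The deposited fold ran the other way in 1 library, with 6.51 in 0 h replicate 2, 6.20 in 6 h replicate 1 and 14.8 in 6 h replicate 2. The percentiles were 32.5, 19.97 and 71.4 in the same order, so 6 h replicate 1 was the lowest by both measures. The geometric mean at 6 h was 1.85 times this 0 h library. Of the 2778 regions of the series called in 0 h replicate 2 and both 6 h libraries, 11.1% had a smaller difference, and in 96.2% both 6 h libraries were above that 0 h library.

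Cebpa lies on chromosome 7 at 35119293 to 35121928 on the plus strand. RUNX1 peaks lay over its start and inside its body at 6 h, and no peak was called within 50 kb at 0 h. The strongest region, chr7:35117736-35120776, held 2 peaks in each 6 h library. The first of them, by coordinate, had its summit 194 and 257 bp upstream of the start in replicates 1 and 2, with 115 and 113 reads, a relative pileup of 41.7 and 53.0, and a fold of 15.6 and 19.1. These folds stood at percentiles 86.1 and 83.1. The peak was 1872 and 2418 bp wide, at width percentiles 99.1 and 99.7.

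The Cebpa promoter holds the summit of 6 h replicate 1, while that of replicate 2 lies just outside the printed window (GRCm38.p6, chr7:35119043-35119342, plus strand, 5′ to 3′). Capitals mark TTGCGC, which is the leading part of the C/EBP palindrome TTGCGCAA, on either strand.
Cebpa promoter: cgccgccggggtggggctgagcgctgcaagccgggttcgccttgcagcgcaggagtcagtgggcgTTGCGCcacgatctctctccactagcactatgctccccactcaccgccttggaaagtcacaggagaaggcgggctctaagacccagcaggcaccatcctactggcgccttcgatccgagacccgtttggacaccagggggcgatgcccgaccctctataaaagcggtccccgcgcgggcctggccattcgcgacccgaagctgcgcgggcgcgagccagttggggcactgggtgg
The single TTGCGC began 185 bases before the start, 9 bp from the summit of 6 h replicate 1 and 72 bp from that of replicate 2, and 6.49% of all promoters held a match. The whole palindrome TTGCGCAA and the looser TTNNGCAA were not found in this window, and 0.183% and 10.8% of all promoters held them. TGTGGT and TGCGGT were not found either, and neither CCAAT nor the full cAMP response element was. TTGCGCAA is itself a match to TTNNGCAA.

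Within the Cebpa body, the second peak of that region had its summit at 35119991 in 6 h replicate 1 and at 35120458 in replicate 2, with a fold of 11.6 and 7.67. A separate region near the end of the gene, chr7:35120902-35121579, was called at 9.37-fold (percentile 57.6) and 15.3-fold (percentile 73.6). Beyond the gene, a region at chr7:35126653-35127444, nearest to the long non-coding RNA gene Gm35724, stood at percentiles 14.2 and 53.8. A further 4 regions in the Cebpa window were called in 6 h replicate 2 alone, at percentiles from 3.90 to 75.5.

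Cebpd lies on chromosome 16 at 15887286 to 15889545, and its strand is not given in the tables used here. It had a single replicated region at 6 h, which crossed the lower-coordinate end of the gene at chr16:15886600-15887953. The summits lay 32 and 105 bp outside that end in 6 h replicates 1 and 2. The relative pileup was 23.5 and 36.1, and the fold of 13.2 and 19.6 put the peak at percentiles 79.3 and 84.0. In 0 h replicate 2 a peak of the same region had its summit 464 bp outside the end, with a relative pileup of 9.42 and a fold of 5.84, at percentile 19.5. In 0 h replicate 1 it was not called. The geometric mean at 6 h was 3.09 times 0 h replicate 2, and 43.0% of the 2778 regions called in the same 3 libraries had a smaller difference. The summits of the region spread over 432 bp, more than the 64 bp at Cebpb. The other peak of the Cebpd window was called in 6 h replicate 2 alone, 23912 bp from the gene, at percentile 45.7. Its summit lay 5 bp from an end of another gene, Mzt2.

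Cebpg lies on chromosome 7 at 35046422 to 35056566 on the minus strand. Its strongest region at 6 h, chr7:35055670-35056943, was centred on the start, with summits 38 and 34 bp upstream in replicates 1 and 2. The pileup was 115 and 96 reads, the relative pileup 41.7 and 45.0, and the fold 18.4 and 18.1. These folds stood at percentiles 90.9 and 81.1, and neither 0 h library had a peak within 50 kb. The start of Cebpg lies inside Gm45095, annotated as a protein-coding gene, so position alone does not give the region to either gene. The other regions of the Cebpg window stood at percentile 15.3 or lower, apart from 1 shared with Cebpa.

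Both 6 h summits fell inside the Cebpg promoter window, which is therefore printed (GRCm38.p6, chr7:35056517-35056816, minus strand, 5′ to 3′). Capitals mark CCAAT, a common promoter element bound by NF-Y, and GTGGT, a shorter RUNX core contained in TGTGGT, each on either strand.
Cebpg promoter: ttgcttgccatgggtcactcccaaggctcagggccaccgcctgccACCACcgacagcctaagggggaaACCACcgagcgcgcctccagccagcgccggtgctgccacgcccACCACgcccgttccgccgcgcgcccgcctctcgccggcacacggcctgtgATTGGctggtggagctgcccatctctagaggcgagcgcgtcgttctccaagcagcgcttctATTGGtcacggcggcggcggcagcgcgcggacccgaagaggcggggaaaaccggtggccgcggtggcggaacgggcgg
Both CCAAT matches read as ATTGG on the printed strand and begin 89 and 28 bases before the start. The one nearer the start lay 10 and 6 bp from the summits of 6 h replicates 1 and 2. CCAAT was found in 37.4% of all promoters. GTGGT occurred 3 times, read as ACCAC, at 97 to 167 bp from the summits, and 41.1% of all promoters held it. TGTGGT and TGCGGT, the longer RUNX cores, were absent from this window too, as were the full cAMP response element and both C/EBP motifs. The 3 promoters were rich in G and C, with 67.3% in Cebpa, 80.7% in Cebpb and 71.7% in Cebpg against a median of 52.7% over the table.

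The windows of Cebpa and Cebpg overlap, and 2 of the 30 regions were counted for both. They lie inside the long non-coding RNA gene Gm35611. The one at chr7:35092647-35092866 was called in both 6 h libraries at percentiles 13.1 and 5.48. The other, at chr7:35086593-35086928, was called in 6 h replicate 2 alone but stood at percentile 75.5, above every other region of the 4 genes that was called in 1 library.

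**Figure D3:**
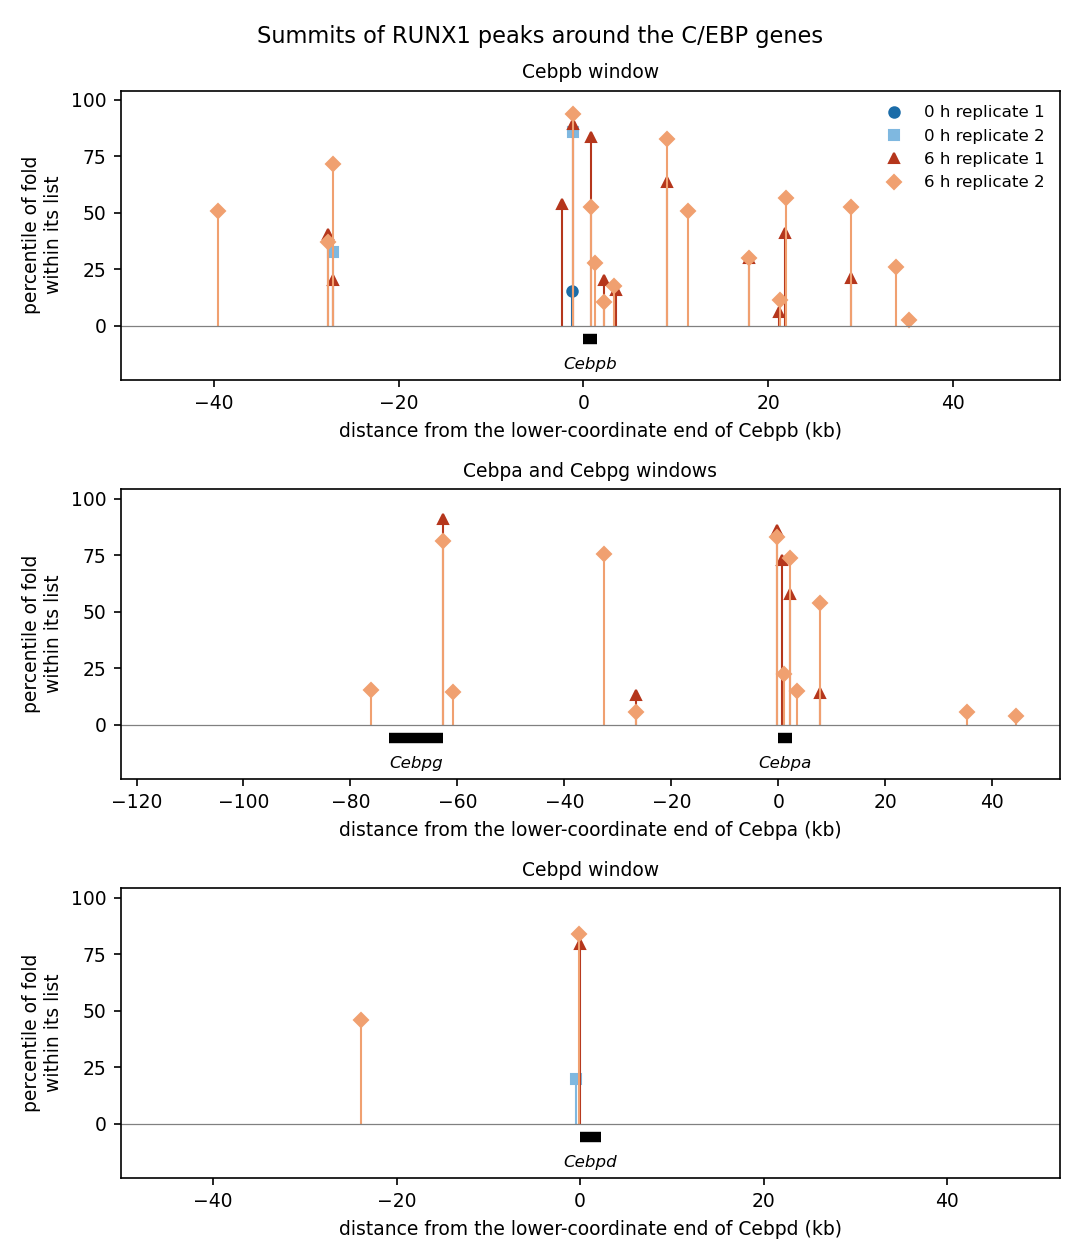
Summits of RUNX1 peaks in the windows of Cebpb, of Cebpa with Cebpg, and of Cebpd, by distance from the lower-coordinate end of Cebpb, Cebpa or Cebpd (x axis, kb), with the percentile of the fold within its own list (y axis) and 1 symbol per library. Black bars are the genes, and the summits of highest percentile at 6 h sit at or upstream of the start of Cebpa, Cebpb and Cebpg and at the lower-coordinate end of Cebpd, between percentiles 79.3 and 93.5.

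Both 6 h libraries placed a summit less than 1 kb from an end of each gene (for Cebpb, that of the region inside the gene), as they did for 37.3% of protein-coding genes, and no such summit was found in both 0 h libraries, against 1.49%. For the 3 genes with a promoter in the table, a peak overlapped the promoter in both 6 h libraries, against 36.4% of the 17491 protein-coding genes with one. None of the 3 promoters was overlapped in both 0 h libraries, against 1.3%. As a whole the peaks of the 4 genes stood near the middle of the 6 h lists. The median percentile of their peaks was 40.95 and 41.3 in the 6 h lists, 1 of 19 and 1 of 30 peaks lay above percentile 90, and the highest reached 90.9 and 93.5.

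**Figure D4:**
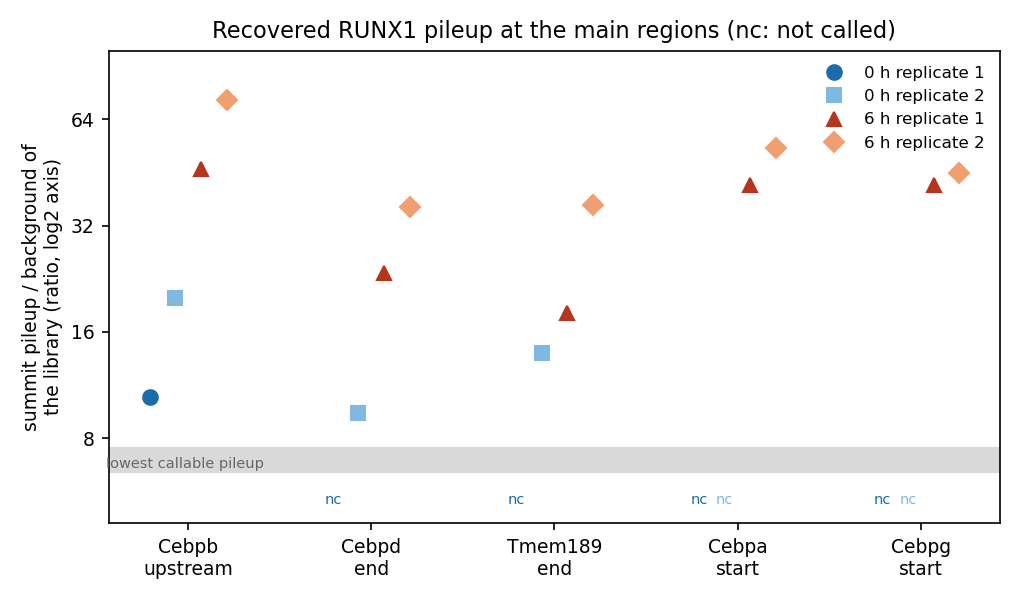
Summit pileup divided by the commonest background of the library (y axis, log2 scale) at 5 regions of the C/EBP loci, with 1 symbol per library, nc where no peak was called, and a grey band for the lowest pileup that could be called at that background. At Cebpb the 6 h libraries reached 46.4 and 72.7 against 10.5 and 19.98 at 0 h, and at Cebpa and Cebpg neither 0 h library had a peak.

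Other genes of the C/EBP network were described by the same 50 kb rule. The list was chosen with earlier results of these data known, and not all of its windows are separate. Its counts beside the shares of all genes are therefore not a test of enrichment. All 31 of them had a peak in both 6 h libraries, 10 had one in both 0 h libraries, and 29 had more peaks in each 6 h than in each 0 h library. The exceptions were Gsk3b and Tef, and Tef is named after its values were seen. Peaks in both 6 h libraries and in neither 0 h library were found for 13, and summits less than 1 kb from an end of the gene in both 6 h libraries for 19. The corresponding shares of protein-coding genes were 69.1%, 8.99%, 64.6%, 40.6% and 37.3%, and long genes have longer windows. A region called in all 4 libraries was found near 9 of the 31, against 8.49% of protein-coding genes. Among 11 related bZIP factors, 5 had such a region, namely Cebpe, Atf3, Atf4, Atf5 and Dbp. Cebpe, the myeloid member of the family, had 1 and 2 peaks at 0 h and 3 and 4 at 6 h. Its highest peak stood at percentiles 63.2 and 93.8 at 0 h, and at 16.4 and 64.5 at 6 h. Atf3, a stress-induced factor, had 1 and 2 peaks at 0 h and 3 and 9 at 6 h, with its highest at percentiles 98.2 and 96.2 at 6 h. For Atf4, the effector of the integrated stress response, these percentiles were 43.9 and 59.8 at 0 h, and 94.5 and 84.1 at 6 h. Dbp, a clock-controlled factor, reached percentiles 96.3 and 92.6 at 6 h, and Atf5 had 6 peaks in each 6 h library.

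Of 9 regulators of C/EBP proteins, Gsk3b and Crebbp had a region in all 4 libraries. Crebbp, which encodes the coactivator CBP, stood at percentiles 70.04 and 98.7 at 0 h, and at 97.8 and 96.5 at 6 h. Gsk3b, a kinase that phosphorylates C/EBP proteins, had 1 peak in each 0 h library, and 1 and 2 at 6 h. Its highest peak stood at percentiles 82.1 and 56.7 at 0 h, and at 71.5 and 78.7 at 6 h. Among the 3 cAMP-responsive bZIP genes, Creb1 had a region in all 4 libraries. Its highest peak stood at percentiles 50.4 and 95.8 at 0 h, and at 89.6 and 92.7 at 6 h. Crem had 2 and 3 peaks at 6 h with the highest at percentiles 98.3 and 96.6. At 0 h Crem had 1 peak, in replicate 2, at percentile 61.1. Of 8 genes known to depend on C/EBP factors, Cyp11a1 had a region in all 4 libraries, with 9 and 11 peaks at 6 h. It encodes the enzyme that starts steroid synthesis from cholesterol. Its highest peak stood at percentiles 56.2 and 83.5 at 0 h, and at 92.1 and 97.5 at 6 h. Cyp19a1, which encodes aromatase, and Pappa, a protease of IGF-binding proteins, had their highest 6 h peaks at percentiles 97.4 and 99.1, and 95.7 and 98.8. At 0 h Cyp19a1 had 1 peak, in replicate 2 at percentile 60, and Pappa had none.

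Genes with the most similar pattern were sought by the highest percentile in each of the 4 lists, with 0 for no peak, over all protein-coding genes more than 1 Mb away. The measure is the Euclidean distance over 4 libraries in percentile points. Rab1a and Cep68, which had the same values as each other, were nearest to Cebpa at 0.151. Gpx3 and Tnip1 were nearest to Cebpb at 4.20, both with percentiles 12.8 and 86.7 at 0 h and 91.8 and 95.6 at 6 h. Kcnn1 and Ccdc124, again with the same values as each other, were nearest to Cebpd at 1.88. Cacna2d4 and Bnip5 were nearest to Cebpg at 1.031 and 1.22. Genes with the same values are not separate matches.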

How the data were processed

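RUNX1 ChIP-seq peak lists of 2 libraries at 0 h and 2 at 6 h were used; the pooled inputs were not analysed here on their own. Per the submitters' processing notes, Bowtie2 2.2.5, MACS2 and mm10 were used; settings are not given in the sources used here. The deposited lists, made per library by the authors, give each peak a fold enrichment (a ratio of pileup to local background), a −log10 p and a −log10 q, and a score that was not analysed. Depth is not stated. Summit pileup P and local background were solved as whole P and a rate from fold, with a pseudocount of 1, and the Poisson p (misfit at most 0.005; 100% of peaks solved), after a test on simulated peaks.

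Genes and promoters came from RefSeq GRCm38.p6; 3 of 4 C/EBP genes matched the promoter table. Windows of 50 kb, overlaps of 1 bp, and exact two-sided permutation tests over libraries were used (Python 3.11.15, scipy 1.17.1, pandas 2.3.3, numpy 2.4.6, matplotlib 3.10.9). Genes were named by rule: the 4 C/EBP genes; genes with the nearest end to a region called in both libraries of a time point; listed network genes with a region in all 4 libraries or among the 3 highest mean 6 h percentiles; and the nearest genes by pattern. Alternatives were windows of 10 and 100 kb, a −log10 q of at least 20, 948 peaks per library, summits within 100 bp, each library left out, and a replicate block. The members and lists were chosen with earlier results of these data known. Gm45095, Mzt2 and Tef were named outside the naming rule.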

Additional observations from a re-analysis of the deposited data

How the results depend on the processing

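The number of peaks at the C/EBP loci (log2 difference 3.14) kept its direction with windows of 10 and 100 kb, with a −log10 q of at least 20 and without any 1 library (2.64 to 3.64). With 948 peaks per library it reversed to -1, as did Cebpb alone (-1), the share of the list became -0.105 percentage points, and 0 regions were called in both 6 h libraries and at neither 0 h. This setting removes more peaks from the longer lists. The log2 difference in the share of the list (0.04) was -0.46 with 10 kb and -0.58 with 100 kb, and ranged from -0.0352 (without 0 h replicate 2) to 0.11 without 1 library; with a −log10 q of at least 20 the mean share was 0.0466% at 0 h and 0.0960% at 6 h. The cause was not tested. The 14 regions called in both 6 h libraries and not at 0 h became 8 with 10 kb, where fewer regions enter, and 14 to 27 without 1 library, the highest without 6 h replicate 1.

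Over the regions called in every library kept, the difference in log2 relative pileup (2.00) ranged from 1.35 to 2.47 and that in percentile (40.96) from 27.0 to 76.2 without 1 library. The lowest values are means over 3 regions without 0 h replicate 1, when the Cebpb region alone gave 1.54 and 5.68; the other values rest on that 1 region. A −log10 q of at least 20, and 948 peaks per library, left no region in all 4 lists and so gave no value. Whether replicate numbers pair the libraries is not known. Over 21896 genes, the difference between replicates at 0 h and at 6 h had a correlation of -0.0291. This value cannot decide it, because 90.6% and 71.8% of genes had no peak in 0 h replicates 1 and 2. With a replicate block the difference in peak number stayed 3.14 (exact permutation p = 0.5, the smallest possible), and that in share 0.04 (p = 1). No test here could reach 0.05, so none of these p-values speaks to stability. Depth is not stated, and a peak not called at 0 h is not evidence of no binding.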
